A study of Homo sapiens with 6 samples.

Results

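The 45 genes described here make the proteins that carry a cell through mitosis. They are the mitotic kinases and their cyclins, the spindle checkpoint, the kinetochore, the mitotic kinesins, the spindle and cytokinesis factors, TOP2A, MKI67 and FOXM1. The genes were named by their known roles, and the rule that lists them uses no measured value. These genes and the other gene lists set beside them were, however, chosen with earlier results of these data known. All 45 are listed among the 24960 genes of the count table, and 44 of them are among the 15095 genes that were tested. RNA came from K562 cells, a chronic myeloid leukemia (CML) cell line that grows in suspension and carries the BCR-ABL1 fusion. The control group and the hyperoside (2 mM) group held 3 libraries each, labelled as replicates 1 to 3. Hyperoside is a plant flavonol glycoside, the galactoside of quercetin. The labels name the tissue as bone and the disease as leukemia, the dose comes from the text of the study, and the time between addition of hyperoside and RNA extraction is not given in the sources used here. No source states that the replicates were separate cultures, so p-values measure the spread between these libraries, which may be technical.

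At entry into mitosis, CDK1 bound to cyclin A or cyclin B phosphorylates many proteins, chromosomes condense and the centrosomes build a spindle. Kinetochores, the protein plates on centromeres, then capture microtubules, and the spindle checkpoint blocks the anaphase promoting complex until every kinetochore is attached. The complex then destroys securin and cyclin B, sister chromatids separate, and kinesins and the chromosomal passenger complex organise the central spindle for cytokinesis. Genes of this group peak together late in the cell cycle, and many carry a CHR element, a short promoter motif read by MuvB complexes, together with CCAAT boxes read by NF-Y.

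Promoters are printed for PTTG1, KIF20A and KIF23, the 3 called members with the largest fold changes among those holding a CHR motif. AURKB (-0.82 on the log2 scale) and NEK2 (-0.79) fell more than KIF23 (-0.75) but had no match and are not printed. The promoter of CDC25B is printed as that of the member with the fold change nearest to 0 that has a promoter window. Each run is 250 bases of the GRCh38.p14 assembly from RefSeq, on the plus strand, with 220 bases before the transcription start and 30 from the start on. Capitals mark TTTGAA or TTTAAA, the forms of the CHR motif searched, and CCAAT, on either strand, so that ATTGG is CCAAT read on the other strand.

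PTTG1, chr5:160421635-160421884: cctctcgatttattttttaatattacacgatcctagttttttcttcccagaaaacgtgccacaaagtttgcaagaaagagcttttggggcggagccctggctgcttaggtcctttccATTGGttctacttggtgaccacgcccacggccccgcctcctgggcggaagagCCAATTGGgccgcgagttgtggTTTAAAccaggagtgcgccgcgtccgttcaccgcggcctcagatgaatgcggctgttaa
KIF20A, chr5:138178892-138179141: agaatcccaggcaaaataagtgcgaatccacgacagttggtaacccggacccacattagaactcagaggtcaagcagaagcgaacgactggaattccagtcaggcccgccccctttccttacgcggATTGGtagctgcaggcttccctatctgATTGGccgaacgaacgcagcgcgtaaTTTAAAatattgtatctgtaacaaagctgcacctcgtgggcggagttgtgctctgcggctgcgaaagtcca
KIF23, chr15:69414129-69414378: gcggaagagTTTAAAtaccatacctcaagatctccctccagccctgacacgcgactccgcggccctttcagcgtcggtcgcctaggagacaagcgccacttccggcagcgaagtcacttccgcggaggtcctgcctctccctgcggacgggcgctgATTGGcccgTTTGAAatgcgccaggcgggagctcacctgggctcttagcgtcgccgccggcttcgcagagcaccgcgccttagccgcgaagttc
CDC25B, chr20:3799828-3800077: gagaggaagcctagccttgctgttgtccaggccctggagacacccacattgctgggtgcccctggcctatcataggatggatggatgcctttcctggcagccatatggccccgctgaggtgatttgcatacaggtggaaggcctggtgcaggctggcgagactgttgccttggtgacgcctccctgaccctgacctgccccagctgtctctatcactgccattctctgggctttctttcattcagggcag

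In PTTG1 the TTTAAA lay 29 bases before the start, and in KIF20A 41 bases before it, both with CCAAT boxes on their 5′ side. KIF23 held TTTGAA 55 bases before the start beside a CCAAT box, and TTTAAA 211 bases before it. CDC25B has 4 listed windows, and the stretch printed from 1 of them contains none of these letters. Its windows do hold them elsewhere, with TTTAAA 33 bases into the transcript of the same window, just past the printed end. CCAAT lay 169 and 73 bases before the start in other windows. CDC25B thus has a match to each motif, but no single window of CDC25B holds both.

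Total counts were 35613283 to 36754725 per library. Erythroid and hematopoietic genes that mark K562 cells, GATA1, TAL1, KLF1, HBG1, HBG2, HBE1 and TFRC, were read in all 6 libraries. KLF1 and TFRC rose by 0.96 and 0.88 on the log2 scale, and HBG1 and HBG2 fell by 0.87 and 0.80, and their part in the mitotic results was not tested. CD2, MS4A1 and CD79A, markers of T and B cells, had 0 to 11 counts per library, while CD3D was at 28.3 to 42.5 CPM (counts scaled to the normalized library size), EPCAM at 74.3 to 82.3 CPM and KRT19 at 203 to 308 CPM. CD3E and CDH1 were at 0.028 to 0.736 CPM, and COL1A1, COL1A2 and DCN at 0.252 to 3.76 CPM. Control replicate 1 stood apart from the other controls with gene length. It was the highest control in 21 of the tested members, with a median gene length of 2643 bases, and the lowest in 17, with a median length of 4838 bases.

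The hyperoside libraries held less RNA of most of these genes. At an adjusted p under 0.05 (edgeR quasi-likelihood test, Benjamini-Hochberg over all tested genes), 35 of the 44 tested members were lower and 2 were higher. That is 79.5% called lower and 4.55% called higher, beside 23.2% and 22.1% of the 15095 tested genes. The members had a median log2 fold change of -0.44 (hyperoside against control, n = 44 genes), with quartiles of -0.60 and -0.26. For all tested genes it was 0.00, with quartiles of -0.31 and 0.36. The decreases were moderate. The range was -0.98 to 0.45, so by edgeR, DESeq2 and limma-voom 0 of 44 members had a fold change past 2 in either direction at any p, whereas 3.76% of all genes were called with a fold change under 0.5 and 6.43% with one above 2. Without control replicate 3, PTTG1 and KIF20A passed it, at -1.03 and -1.02 on the log2 scale. Without control replicate 1, 36 members were called lower and 2 higher, with a median of -0.45. The 3 hyperoside values lay below the 3 control values in 34 members and above them in 2, against 27.3% and 27.1% of all tested genes. In RNA from a whole culture, fewer mitotic cells and less of these transcripts per cell cannot be told apart.

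**Figure D1:**
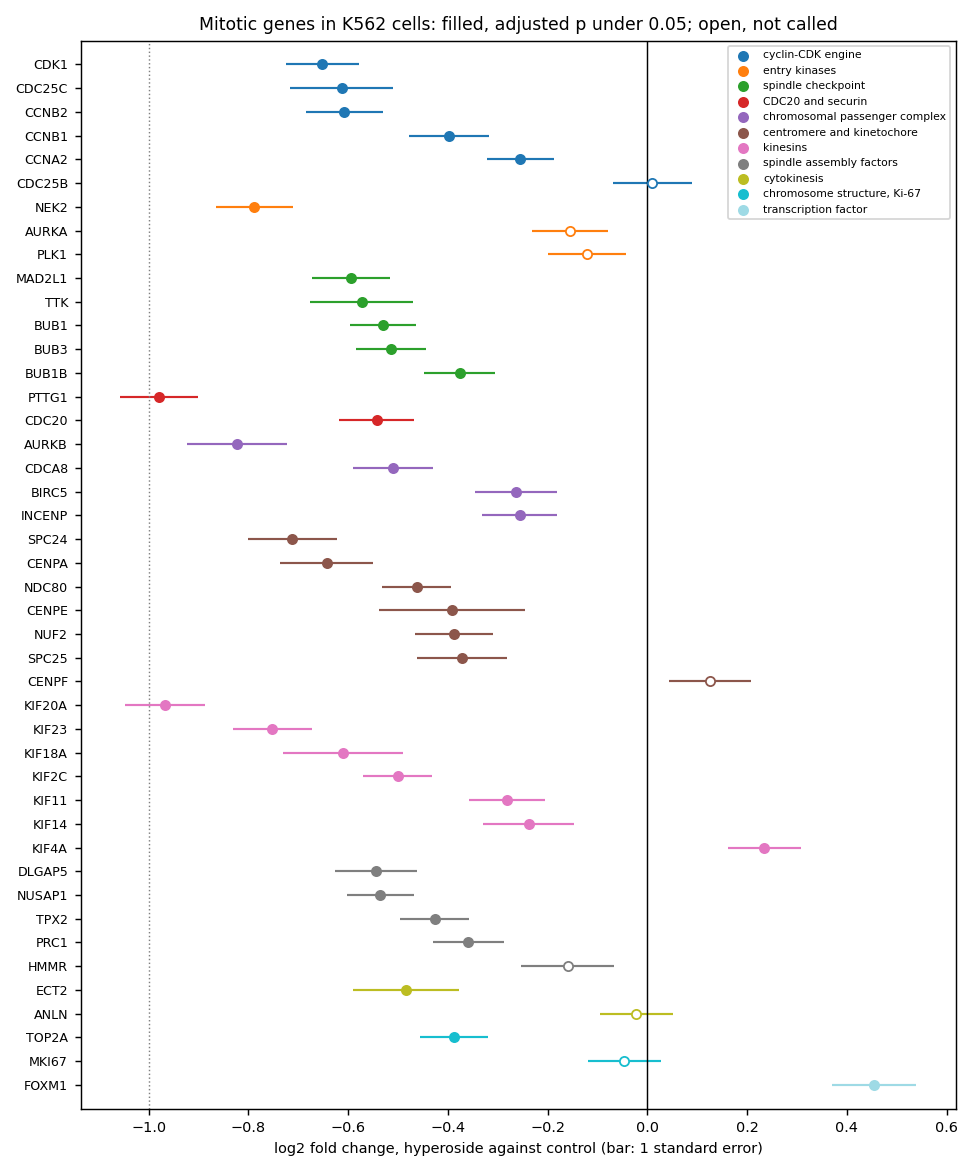
Log2 fold change of the 44 tested members, hyperoside against control, with bars of 1 standard error, coloured by role. Filled points passed an adjusted p of 0.05, open points did not. PTTG1 at -0.98 and KIF20A at -0.97 lie near the dotted line that marks a fold change of 2 (-1 on the log2 scale), and KIF4A at 0.23 and FOXM1 at 0.45 are the filled points on the other side of 0.

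The same difference appeared in each hyperoside library. The median over the members of the log2 ratio to the control mean was -0.45, -0.44 and -0.46 in hyperoside replicates 1, 2 and 3, and 0.02, 0.03 and -0.04 in the control libraries. In each hyperoside library 40 of the 44 members lay below the control mean. Counts on the members made up 0.706%, 0.749% and 0.727% of all counts in the control libraries and 0.575%, 0.575% and 0.563% in the hyperoside libraries. The 3 control shares were above the 3 hyperoside shares.

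**Figure D2:**
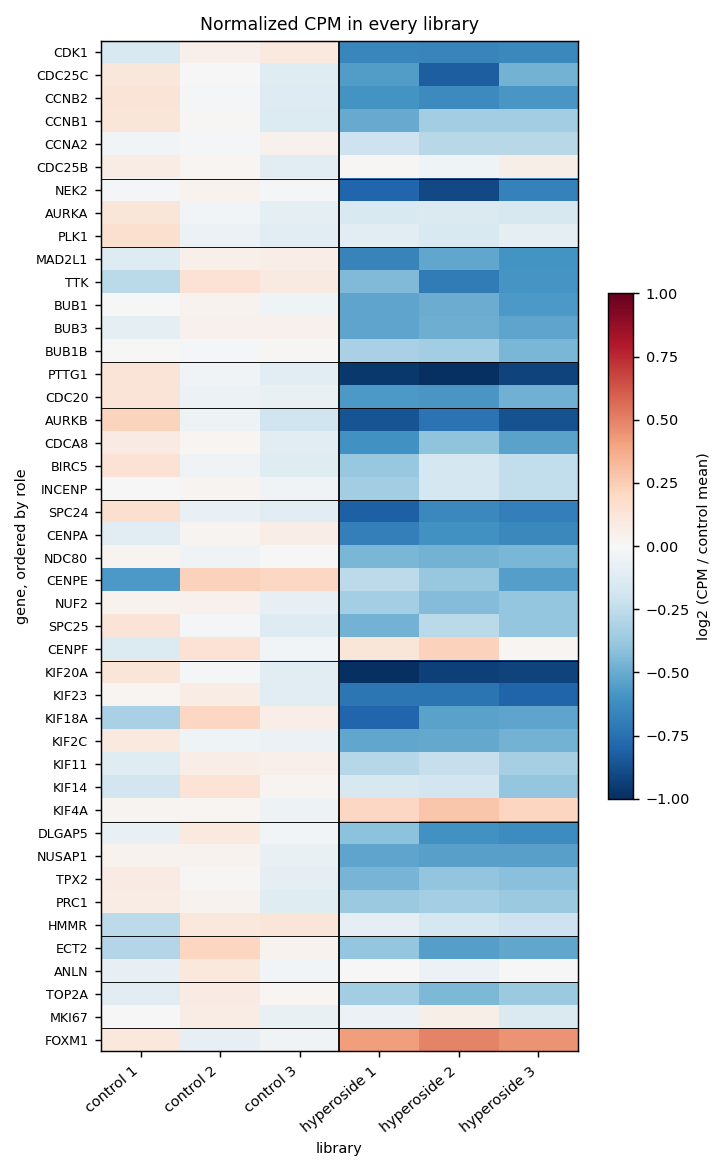
Normalized CPM of each tested member in each of the 6 libraries, as the log2 ratio to the control mean, with genes ordered by role. The 3 hyperoside columns are blue in most rows, and FOXM1 and KIF4A are red in all 3. In control replicate 1, CENPE is at least as blue as in any hyperoside column.

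Of the cyclin and CDK genes, 5 of 6 fell, with a median log2 fold change of -0.50. CDK1, the kinase that drives entry into mitosis, was read at 371, 427 and 441 CPM in control replicates 1 to 3 and at 263, 261 and 264 CPM in hyperoside replicates 1 to 3. Its control libraries were all higher, and its hyperoside libraries were nearly equal, with a coefficient of variation of 0.562% against 9.03% in the controls. The log2 fold change of CDK1 was -0.65 (SE 0.07, adjusted p = 1.48e-06). Among its cyclin partners, CCNB2 fell by 0.61, CCNB1 by 0.40 and CCNA2 by 0.25 on the log2 scale.

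CDC25B and CDC25C encode phosphatases that remove the inhibitory phosphates from CDK1. CDC25C was at 50.4, 46.5 and 42.7 CPM in the control libraries and at 31.6, 26.2 and 33.5 CPM in the hyperoside libraries. Those groups did not overlap, and the log2 fold change was -0.61 (SE 0.10, adjusted p = 1.06e-04). CDC25B was at 79.7, 76.6 and 70.4 CPM in the controls and at 76.2, 73.3 and 78.7 CPM with hyperoside. Its groups overlapped, with a log2 fold change of 0.01 (SE 0.08, adjusted p = 0.928).

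Of the 3 kinases of the centrosome and mitotic entry, NEK2 fell and AURKA and PLK1 did not pass the test. NEK2, which acts in centrosome separation, was at 118, 123 and 119 CPM in the controls and at 69.5, 64.3 and 75 CPM with hyperoside. The hyperoside mean was 57.9% of the control mean, without overlap, and the log2 fold change was -0.79 (SE 0.08, adjusted p = 3.01e-07). AURKA, the kinase of centrosome maturation, had a log2 fold change of -0.15 (SE 0.08, adjusted p = 0.108), although its 3 hyperoside values, 93.6 to 94.9 CPM, lay below its 3 control values, 98.1 to 114 CPM. PLK1, which acts at centrosomes, kinetochores and the midbody, had a value of -0.12 (SE 0.08, adjusted p = 0.220). A noncoding antisense gene in GENCODE 29 overlaps 11.6% of the exonic bases of PLK1.

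All 5 spindle checkpoint genes fell, over a narrow range of log2 fold changes from -0.59 to -0.38. BUB1, a kinetochore kinase of the checkpoint, was at 296, 303 and 287 CPM in the control libraries and at 205, 209 and 199 CPM in the hyperoside libraries. The groups were far apart relative to their spread, with a log2 fold change of -0.53 (SE 0.07, adjusted p = 4.73e-06). MAD2L1, which binds and holds CDC20, fell by 0.59, TTK, the MPS1 kinase that starts checkpoint signalling, by 0.57, BUB3, the adaptor of both BUB kinases, by 0.51 and BUB1B, a part of the mitotic checkpoint complex, by 0.38.

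Both tested genes of the next step, degradation at anaphase, fell. PTTG1, or securin, inhibits separase until anaphase, and it had the lowest fold change of all members. It was read at 202, 180 and 172 CPM in the controls and at 94.8, 89.3 and 97.3 CPM with hyperoside. Every hyperoside value was below every control value, the hyperoside mean was 50.7% of the control mean, and the log2 fold change was -0.98 (SE 0.08, adjusted p = 2.56e-08). On a scale that accounts for gene length, PTTG1 was the second most abundant member in control cells, at 128 FPKM (SD 7.63, n = 3), and the tenth in hyperoside cells, at 67.3 FPKM (SD 2.81, n = 3). Counts on PTTG2, a near copy of PTTG1, summed to 1 over the 6 libraries. CDC20, which activates the anaphase promoting complex and is the target of the checkpoint, fell by 0.54 on the log2 scale (SE 0.08, adjusted p = 1.51e-05). UBE2C, the ubiquitin-conjugating enzyme of that complex, had 13, 4 and 5 counts in the control libraries and 8, 18 and 9 in the hyperoside libraries and did not pass the filter on low counts. No exon of another gene in GENCODE 29 overlaps UBE2C, and the reason for its low counts was not tested.

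The chromosomal passenger complex, which corrects faulty attachments and later moves to the central spindle, had 4 of 4 genes lower. AURKB, its kinase, was at 92.9, 76.7 and 69.3 CPM in the controls and at 43.7, 47.8 and 43.6 CPM with hyperoside. Control replicate 1 was the highest, the groups did not overlap, and the log2 fold change was -0.82 (SE 0.10, adjusted p = 3.18e-06). The other members of the complex changed less. CDCA8, or borealin, fell by 0.51, BIRC5, or survivin, by 0.26 and INCENP, the scaffold that binds and activates AURKB, by 0.26 on the log2 scale. Without hyperoside replicate 1, neither BIRC5 (adjusted p = 0.102) nor INCENP (adjusted p = 0.0795) was called.

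Counts of related genes can be divided within a library, which removes the library's scaling. The 4 pairs described here were set after the fold changes had been seen. The ratio of AURKB to AURKA counts was 0.815, 0.747 and 0.706 in the control libraries and 0.464, 0.504 and 0.465 in the hyperoside libraries, and that of CDC25C to CDC25B was 0.632, 0.607 and 0.607 against 0.414, 0.358 and 0.426. Both ratios were lower in all 3 hyperoside libraries, by 0.66 and 0.63 on the log2 scale. Smaller differences were seen for CCNB2 to CCNB1, at -0.21, and for BUB1 to BUB1B, at -0.15, and in these 2 pairs too the groups did not overlap. In a two-sided exact permutation test each of the 4 gave p = 0.1, also after Benjamini-Hochberg adjustment. That is the smallest p that 3 against 3 libraries allow. Groups that do not overlap always give it, so the test adds nothing to the lack of overlap.

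At the centromere and kinetochore 6 of 7 genes fell. SPC24 was at 83.9, 71.4 and 69.8 CPM in the controls and at 42.7, 48 and 46.8 CPM with hyperoside. Its groups did not overlap, and the log2 fold change was -0.71 (SE 0.09, adjusted p = 5.25e-06). SPC24 forms the NDC80 complex, the microtubule anchor of the kinetochore, with NDC80, NUF2 and SPC25, which fell by 0.46, 0.39 and 0.37 on the log2 scale, so all 4 subunits were lower.

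CENPA is the histone H3 variant that marks centromeres. Its values were 32.5, 35.6 and 36.7 CPM in the controls and 21.7, 23.0 and 22.3 CPM with hyperoside, without overlap, for a log2 fold change of -0.64 (SE 0.09, adjusted p = 2.43e-05). CENPF, a large kinetochore protein, had a log2 fold change of 0.13 (SE 0.08, adjusted p = 0.222). CENPE, a kinesin of the kinetochore, was at 68.6, 120 and 118 CPM in the controls and at 85.0, 78.5 and 69.8 CPM with hyperoside. Control replicate 1 was lower than both other controls and lower than all 3 hyperoside values, and the log2 fold change of -0.39 (SE 0.15, adjusted p = 0.0356) became -0.61 without that library (adjusted p = 1.28e-07). The call of CENPE was lost in 10 of 15 other ways of processing, with adjusted p-values up to 0.285.

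Of the 7 kinesins, 6 fell and KIF4A rose. KIF20A, a kinesin that brings the passenger complex to the central spindle, was at 135, 122 and 115 CPM in the controls and at 60.2, 64.9 and 65.4 CPM with hyperoside. Its hyperoside mean was 51.1% of the control mean, the groups did not overlap, and the log2 fold change was -0.97 (SE 0.08, adjusted p = 4.15e-08). KIF23, the kinesin of the centralspindlin complex, was at 96.4, 100 and 88.5 CPM in the controls and at 57.7, 57.2 and 54.5 CPM with hyperoside. All 3 hyperoside values were lower, with a log2 fold change of -0.75 (SE 0.08, adjusted p = 6.51e-07).

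KIF18A, which dampens chromosome movements at the metaphase plate, had the lowest level per gene length among tested members, 10.1 FPKM in control cells (SD 2.01, n = 3). It was at 34.3, 49.4 and 45 CPM in the controls and at 24.8, 29.7 and 29.8 CPM with hyperoside. The control libraries varied more than the hyperoside libraries but did not overlap with them, and the log2 fold change was -0.61 (SE 0.12, adjusted p = 4.74e-04). Of the other kinesins, KIF2C, a microtubule depolymerase, fell by 0.50, KIF11, the motor that pushes spindle poles apart, by 0.28 and KIF14, which acts in cytokinesis, by 0.24. The call of KIF14 (adjusted p = 0.0414) was lost in 10 of 15 other ways of processing, and its groups overlapped.

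KIF4A, a chromokinesin that also limits the length of the central spindle, was at 82.2, 81.6 and 77.9 CPM in the controls and at 93.0, 97.6 and 93.7 CPM with hyperoside. All 3 hyperoside values were higher, by 0.23 on the log2 scale (SE 0.07, adjusted p = 0.0141). Leaving out control replicate 3 or hyperoside replicate 2 ended that call (adjusted p = 0.0571 and 0.0585). KIF4B, a near copy of KIF4A, had 17 to 38 counts per library. PDZD11 on the opposite strand covers 1.7% of the exonic bases of KIF4A, and its log2 fold change was 0.32.

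Among 5 spindle assembly factors 4 fell. NUSAP1, which bundles microtubules near chromosomes, was at 308, 307 and 285 CPM in the controls and at 208, 206 and 206 CPM with hyperoside. The groups were well apart, with a log2 fold change of -0.54 (SE 0.07, adjusted p = 4.64e-06). DLGAP5, a stabiliser of kinetochore fibres, fell by 0.54, TPX2, the activator of AURKA on the spindle, by 0.43 and PRC1, the crosslinker of the central spindle, by 0.36. In GENCODE 29 a gene on the same strand shares 62.2% of the exonic bases of NUSAP1, and another 57.6% of those of PRC1. Counts of both may depend on how such reads were assigned, which was not tested. HMMR, a spindle and hyaluronan binding protein, had a value of -0.16 (SE 0.09, adjusted p = 0.171), and without control replicate 1 it was -0.27 with an adjusted p of 0.00102.

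Of the 2 cytokinesis genes, ECT2 fell. ECT2 activates RhoA at the cell equator and was at 58.7, 83.5 and 74.1 CPM in the controls and at 55.0, 49.3 and 50.3 CPM with hyperoside. The lowest control value was close to the highest hyperoside value, without overlap, and the log2 fold change was -0.48 (SE 0.11, adjusted p = 0.00121). ANLN, the scaffold of the contractile ring, had a value of -0.02 (SE 0.07, adjusted p = 0.826).

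TOP2A, the topoisomerase that untangles sister chromatids, was the most abundant member per gene length in both groups, at 141 FPKM (SD 11.7, n = 3) in control and 112 FPKM (SD 4.52, n = 3) in hyperoside cells. In CPM it was at 778, 882 and 846 in the controls and at 658, 611 and 646 with hyperoside. Those groups did not overlap, and the log2 fold change was -0.39 (SE 0.07, adjusted p = 1.72e-04). MKI67, the gene of the proliferation marker Ki-67, was at 287, 303 and 273 CPM in the controls and at 276, 300 and 260 CPM with hyperoside. Its groups overlapped, with a log2 fold change of -0.05 (SE 0.07, adjusted p = 0.635).

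**Figure D3:**
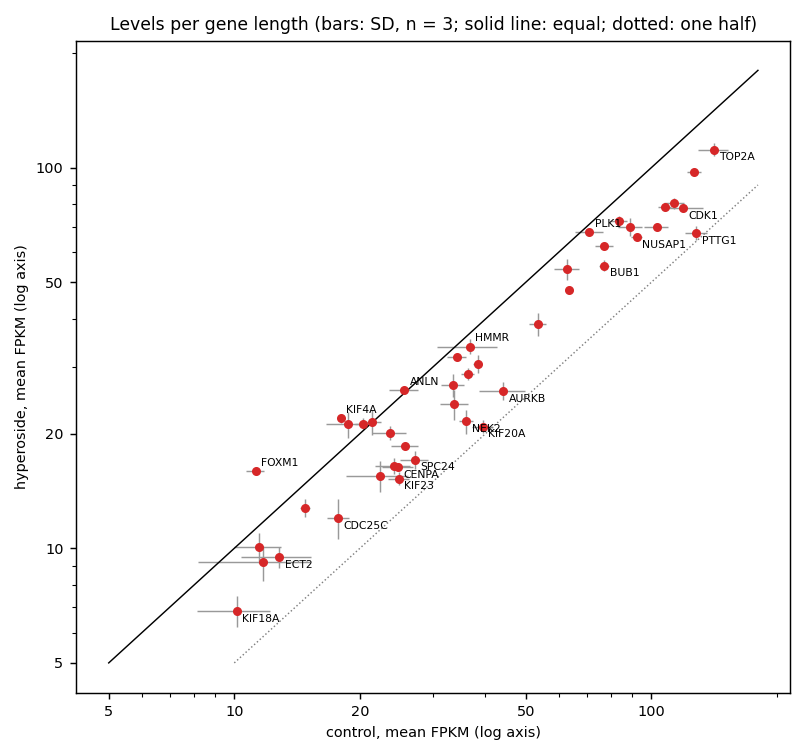
Mean level per gene length (FPKM) of the 44 tested members in control cells on the horizontal axis and in hyperoside cells on the vertical axis, both log axes, with bars of 1 SD (n = 3). Points on the solid line are equal in both groups, and the dotted line marks a level of 50% of control. TOP2A lies at the upper end, PTTG1 and KIF20A lie nearest to the dotted line, and FOXM1 and KIF4A lie above the solid line.

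FOXM1, a transcription factor that joins MuvB at CHR promoters and activates many genes of this group, rose. It was at 46.0, 40.3 and 41.8 CPM in the controls and at 57.1, 60.2 and 58.3 CPM with hyperoside. All 3 hyperoside values were higher, the hyperoside mean was 137% of the control mean, and the log2 fold change was 0.45 (SE 0.08, adjusted p = 2.82e-04). Over the 15 other ways of processing the value ranged from 0.41 to 0.51 and the call was kept. ITFG2 on the opposite strand covers 15.9% of the exonic bases of FOXM1, and its own log2 fold change was 0.05 (SE 0.13, adjusted p = 0.758).

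Many members share promoter letters. The rule that lists the members did not use these letters, but genes of this group were already known to carry them often. RefSeq windows from 250 bases before to 50 after a transcription start were found for 38 of the 45 members, 48 windows in all, since some genes have several. TTTGAA or TTTAAA, searched on both strands, was in 77.1% of the member windows and in 17.6% of 16604 windows of the other tested genes, against 24.0% of all 35116 windows. CCAAT on either strand was in 77.1%, 34.8% and 34.6% of the same sets. Both were in 60.4% of member windows and in 6.87% of the windows of other tested genes. Of 60 CHR matches in member windows, 25 lay from 50 to 1 bases before the start, against 544 of 3597 matches in the windows of other tested genes. Of 76 CCAAT matches, 38 lay from 100 to 51 bases before the start, against 2810 of 8862. Overlapping windows of a gene count a match more than once, and these stretches were set after the positions had been seen.

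**Figure D4:**
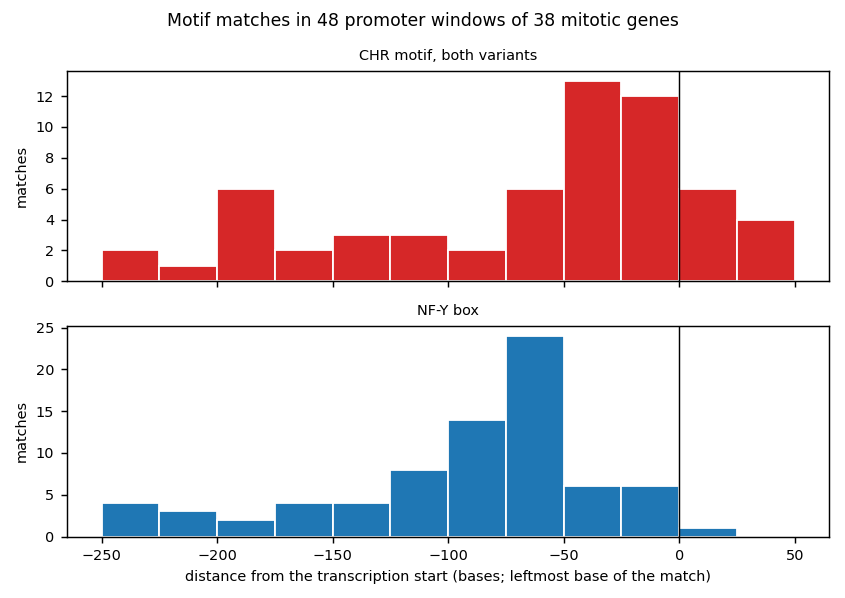
Position of motif matches in the 48 promoter windows of 38 members, as distance in bases from the transcription start to the leftmost base of the match, in bins of 25 bases. CHR matches are most frequent just before the start, and matches to the NF-Y box (CCAAT) lie further upstream.

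Fold changes were set beside the CHR letters as a description. The 33 members with a match in a window had a median log2 fold change of -0.40, and 26 of them were called lower. The 5 without one, CCNA2, NEK2, BUB1, AURKB and SPC24, were all called lower with a median of -0.71, and all 5 had a CCAAT match. Only TTTGAA and TTTAAA were searched, so these 5 may still hold another form of the CHR motif. No window was listed for FOXM1, BUB3, TTK, AURKA, UBE2C, BIRC5 or TPX2.

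Other genes of the mitotic machinery were compared by lists of their complexes. The counts are read beside the 23.2% of all tested genes called lower and the 22.1% called higher. Among 27 other entry, spindle and cytokinesis genes, 19 were lower and 3 higher (70.4% and 11.1%), with a median log2 fold change of -0.41, close to that of the 44 members. PSRC1, a microtubule regulator, fell by 1.26, CKS2, a subunit of the CDK1 complex, by 0.94 and CEP55, a midbody protein, by 0.76 on the log2 scale. HASPIN, the kinase of a histone mark that recruits the passenger complex, ASPM, a spindle pole protein, and WEE1, the kinase that inhibits CDK1, rose by 0.50, 0.49 and 0.35. Of 6 other mitotic kinesins 3 were lower (50%) and 0 higher, with a median of -0.26. KIFC1, a minus-end motor, fell by 0.62 and KIF22, a chromokinesin, by 0.54.

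Of 31 other kinetochore and centromere genes, 11 were lower and 7 higher (35.5% and 22.6%), with a median of -0.11. CENPC, which anchors the kinetochore on CENPA chromatin, fell by 1.07, and HJURP, the chaperone that loads CENPA, by 0.90, while CENPP and ZW10 rose by 0.72 and 0.38. Of 17 subunits and regulators of the anaphase promoting complex, 5 were lower and 2 higher (29.4% and 11.8%), with a median of -0.02. CDC26, ANAPC10 and ANAPC11 fell by 0.60, 0.46 and 0.43, while ANAPC2, a catalytic subunit, and CDC27 rose by 0.78 and 0.23. Of 21 cohesin and condensin genes, 5 were lower and 7 higher (23.8% and 33.3%), near the share of all genes for the lower calls, with a median of -0.04. STAG1, a cohesin subunit, rose by 1.11 and MAU2, a part of the cohesin loader, by 0.62, while NCAPD2 and SMC4 of condensin fell by 0.37 and 0.32.

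The MuvB, B-MYB and DREAM genes encode subunits of MuvB, the complex that reads the CHR element, and its partners. Of these 12 genes, 2 were lower and 2 higher (16.7% each), with a median of -0.06. Of 16 replication fork genes, which are most active in S phase, 3 were lower and 1 higher (18.8% and 6.25%), with a median of -0.05. GINS2, of the replicative helicase, fell by 0.62 and CDC6, a loader of that helicase, by 0.35, while GINS3, of the same GINS complex as GINS2, rose by 0.65. The 18 tested transport kinesins and light chains, motors known mainly for carrying cargo, had 5 genes lower and 5 higher (27.8% each, near the shares of all genes), with a median of -0.04. KIF5A fell by 1.28 and KIF3B rose by 0.76 on the log2 scale.

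**Figure D5:**
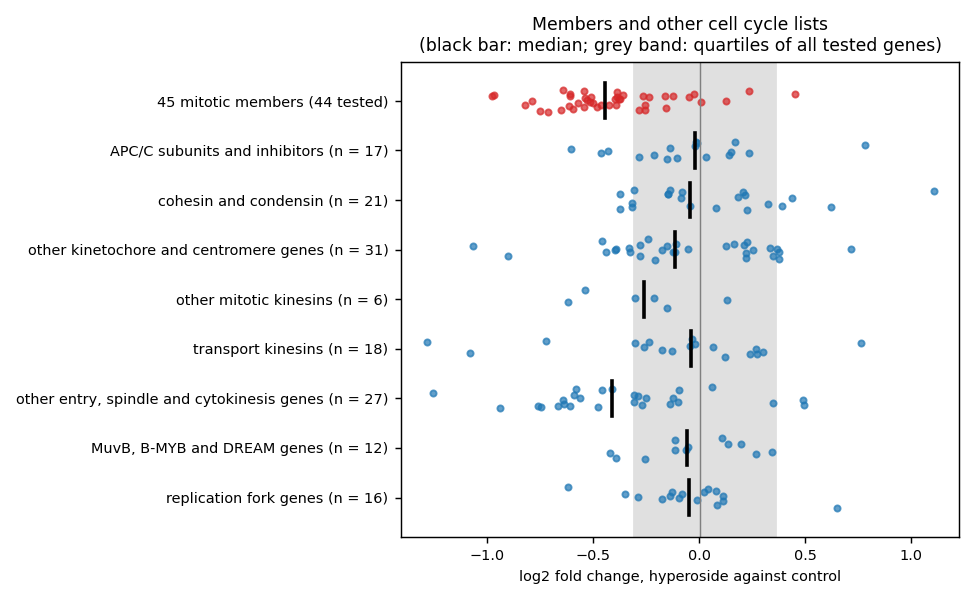
Log2 fold change of the 44 tested members and of the genes in 8 other lists, hyperoside against control. Points are genes, black bars are medians and the grey band spans the quartiles of all tested genes, -0.31 to 0.36. The members' median of -0.44 and that of the other entry, spindle and cytokinesis genes, -0.41, lie left of the band, and the medians of the other 7 lists lie inside it.

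The 22 members up to the median length of 3343 bases had 19 called lower and a median of -0.52, and the 22 longer ones had 16 called lower, 2 higher and a median of -0.39. Among all tested genes the same length classes had 24.7% and 22.1% called lower and medians of -0.05 and 0.04. Of the 45 members, 18 share exonic bases with another gene in GENCODE 29, 15 of them with one on the opposite strand, and the use of strand in the counting is not given in the sources used here.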

How the data were processed

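RNA from K562 cells in the control (n = 3) and hyperoside (n = 3) groups was sequenced, and groups came from the sample labels. The authors deposited raw counts per gene, not normalized. They also deposited FPKM values, the same counts scaled to gene length and library total. The submitters' processing notes name fastp, HISAT2 and HTSeq and the hg38 build, while the annotation and the use of strand are not given in the sources used here.

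Counts were filtered with filterByExpr (minimum count 10, minimum total 15), normalized by TMM (factors 0.957 to 1.03) and compared with the quasi-likelihood test of edgeR 4.0.16 in R 4.3.3, with no covariate besides the group. Adjusted p-values are Benjamini-Hochberg values over 15095 genes, and the standard error is the log2 fold change divided by the square root of F. CPM are TMM-normalized. The study names DESeq, and DESeq2 1.42.0 and limma 3.58.1 (voom, or trend on log2(FPKM + 1) and log2(FPKM + 0.1)) served as alternatives, as did other normalizations, no filter, the replicate number as a block, and fits without each library in turn. Total counts were 35613283 to 36754725, and precision depends on the spread between libraries as well as on counts. Replicates differed by more than counting error (chi-square per degree of freedom of 6.34 to 23.1), so no library copies another. Gene positions and promoters came from RefSeq (GRCh38.p14) and exon overlaps from GENCODE 29. Tables were made with Python 3.11.15, pandas 2.3.3 and numpy 2.4.6, and figures with matplotlib 3.10.9.

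The members and gene lists were chosen with earlier results of these data known. Values in every library are given for the 10 called members with the largest fold change, the called member with the smallest adjusted p in each role group and members called higher, and from each other list at most 3 called genes per direction are named. Genes named beyond this, among them CDC25B, AURKA, CENPE, MKI67 and the overlapping genes, were chosen after their values were seen. Some marker genes and a gene overlapping a member are not reported here.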

Additional observations from a re-analysis of the deposited data

How the results depend on the processing

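Of 37 called members, 32 kept their direction and call in all 15 alternatives and 0 changed direction. The exceptions were CENPE and KIF14 (call lost in 10 alternatives each), KIF4A (2), BIRC5 (1) and INCENP (1), and the cause was not tested. Members called lower numbered 33 to 35 under other normalizations, filters, tests and units, and 32 to 36 with a library left out. The members' median log2 fold change was -0.40 with upper-quartile factors, -0.39 with library totals, -0.38 with limma on log2(FPKM + 1) and -0.39 on log2(FPKM + 0.1), and it ranged from -0.47 to -0.41 with a library left out. In those left-out fits, 1 to 2 members were called higher and 0 to 2 passed a fold change of 2 as lower. On the log2(FPKM + 1) scale, which understates changes of low genes, 208 genes passed a fold change of 2 as higher and 136 as lower, against 970 and 567. Members near 0 that were not called changed sign. ANLN was 0.018 with upper-quartile factors, 0.026 with library totals, 0.028 on log2(FPKM + 1) and 0.029 on log2(FPKM + 0.1), and -0.059 to 0.030 with a library left out. MKI67 was 0.0036 with library totals and 0.0020 on both FPKM scales, and -0.10 to 0.012 with a library left out. CDC25B ranged from -0.042 to 0.054 with a library left out. The replicate numbers did not pair the libraries (correlations of -0.081, -0.033 and -0.034 between libraries of the same number). With them as a replicate block, 34 members were called lower and 2 higher, with a median of -0.44, and 3103 and 3026 of all genes were. Where a library was left out, the smaller group had 2 libraries and shared the estimate of the spread.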
